A study of Mus musculus with 13 samples.

Results

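The genes described here are the nuclear genes whose symbols name structural subunits of the 5 oxidative phosphorylation complexes in mouse skeletal muscle. They were chosen by symbol alone: every gene of the bulk table beginning Ndufa, Ndufb, Ndufc, Ndufs, Ndufv, Uqcr, Atp5 or Cox4 to Cox8, with Sdha, Sdhb, Sdhc, Sdhd and Cyc1, leaving out the Ndufaf assembly factors, Ndufa4l2 and pseudogene symbols. The rule gave 85 of 24411 genes: 36 of complex I, 4 of complex II, 9 of complex III, 19 of complex IV (with Ndufa4 and Cox7a2l), 15 of complex V, and Atp5s and Atp5sl, which carry an Atp5 symbol and were kept apart. The study mapped the cells of hindlimb muscle and set a sorted population called smooth-muscle/mesenchymal-like cells (SMMC) against muscle stem cells (MuSC). All animals were wild-type C57BL/6 mice of 2 months.

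The bulk groups were fresh SMMC, sorted as CD31-CD45-Sca1-Vcam1-ITGA7+ cells (3 libraries), proliferating SMMC, the same sort grown in culture for 3 days (3 libraries), differentiating SMMC, grown and then left to differentiate for a time that the labels do not give (3 libraries), and fresh MuSC, sorted on Vcam1 and ITGA7 (2 libraries). Polyadenylated RNA was amplified by Smart-seq2, a full-length cDNA method. A further 2 droplet libraries came from mononuclear cell suspensions of uninjured muscle. Nothing states that replicates came from separate animals, so p-values measure the spread between these libraries, which may be technical.

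Oxidative phosphorylation passes electrons from NADH (complex I) or succinate (complex II) through ubiquinone, complex III, cytochrome c and complex IV to oxygen, and the proton gradient that this builds drives ATP synthesis by complex V. Most subunits are encoded in the nucleus, and a small set by the mitochondrial genome. Several complex IV subunits exist as pairs of isoforms: Cox6a2, Cox7a1 and Cox8b are the heart and skeletal muscle forms of Cox6a1, Cox7a2 and Cox8a, Cox4i2 is a form of Cox4i1 known from lung and from oxygen-dependent regulation, and Cox6b2 is a testis form of Cox6b1.

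The promoters of 5 genes on which the results turn are printed so that muscle isoforms can be set beside broadly expressed genes: Cox8b and Cox8a are a pair of isoforms, Cox7a1 is a further muscle isoform, Cox6a1 is the counterpart of Cox6a2, and Sdhd had one of the largest increases in culture. Each is the strand of the gene from 250 bases before to 50 bases after its start, from RefSeq on GRCm38.p6, and capitals mark the letters of a searched motif on either strand. The windows are chr7:140900397-140900696 (minus strand) for Cox8b, chr19:7217567-7217866 (minus) for Cox8a, chr7:30183921-30184220 (plus) for Cox7a1, chr5:115348909-115349208 (minus) for Cox6a1 and chr9:50603800-50604099 (minus) for Sdhd.
Cox8b: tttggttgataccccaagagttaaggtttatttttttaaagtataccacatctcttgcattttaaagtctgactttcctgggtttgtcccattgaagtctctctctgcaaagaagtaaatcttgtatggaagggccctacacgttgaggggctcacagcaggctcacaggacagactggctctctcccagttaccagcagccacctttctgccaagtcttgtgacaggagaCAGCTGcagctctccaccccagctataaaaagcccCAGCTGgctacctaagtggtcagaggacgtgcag
Cox8a: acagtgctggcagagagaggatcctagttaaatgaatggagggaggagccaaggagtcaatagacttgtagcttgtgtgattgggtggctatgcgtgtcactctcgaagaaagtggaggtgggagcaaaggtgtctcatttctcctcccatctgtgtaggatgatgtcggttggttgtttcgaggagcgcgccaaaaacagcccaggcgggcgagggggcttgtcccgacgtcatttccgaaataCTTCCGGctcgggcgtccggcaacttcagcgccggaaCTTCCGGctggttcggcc
Cox7a1: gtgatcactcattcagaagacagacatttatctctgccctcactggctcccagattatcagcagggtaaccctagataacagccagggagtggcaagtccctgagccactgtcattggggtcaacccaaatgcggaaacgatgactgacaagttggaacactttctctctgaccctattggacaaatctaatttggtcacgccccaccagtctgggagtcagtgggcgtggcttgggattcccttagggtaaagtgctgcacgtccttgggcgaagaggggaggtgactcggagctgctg
Cox6a1: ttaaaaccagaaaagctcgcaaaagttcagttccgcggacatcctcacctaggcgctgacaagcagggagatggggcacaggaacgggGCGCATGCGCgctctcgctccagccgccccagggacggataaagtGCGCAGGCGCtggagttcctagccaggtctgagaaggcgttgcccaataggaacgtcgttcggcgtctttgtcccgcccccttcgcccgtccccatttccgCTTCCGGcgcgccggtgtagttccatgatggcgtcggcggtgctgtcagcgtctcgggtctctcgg
Sdhd: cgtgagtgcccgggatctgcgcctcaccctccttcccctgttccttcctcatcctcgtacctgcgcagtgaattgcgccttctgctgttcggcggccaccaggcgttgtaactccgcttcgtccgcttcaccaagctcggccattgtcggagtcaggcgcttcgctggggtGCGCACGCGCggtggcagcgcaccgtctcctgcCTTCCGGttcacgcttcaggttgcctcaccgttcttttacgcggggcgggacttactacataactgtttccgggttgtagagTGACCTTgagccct
In Cox8b the capitals are the myogenic E-box CAGCTG, at bases -19 to -14 and 17 to 22 counted from the start with no base 0. In Cox8a they are the ETS motif CCGGAAG, in reverse complement, at -5 to 2 and at 33 to 39. Cox6a1 held the NRF1 motif (GCGCA, any base, then GCGC) at -162 to -153 and -117 to -108 and the ETS motif at -16 to -10. Sdhd held NRF1 at -79 to -70, ETS at -46 to -40 and the ERR motif AAGGTCA at 37 to 43; these ETS and ERR matches also read in reverse complement. None of the searched motifs was in the Cox7a1 window. Of windows read but not printed, those of Cox7a2, the counterpart of Cox7a1, and of Ndufa4 also held none. That of Atp5o held NRF1 at 10 to 19 and no other. In the printed windows the ETS motif was thus in Cox8a, Cox6a1 and Sdhd and in neither muscle isoform, Cox8b or Cox7a1. The unprinted windows of Cox7a2, Ndufa4 and Atp5o lacked it as well, so the motif did not mark every gene that is no muscle isoform.

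Promoters of 70 of the 85 genes were matched by symbol or, failing that, by a listed synonym, with the first listed window taken, 1 a gene. The NRF1 motif was in 16 of these 70 (22.9%), against 4.78% of all 27025 promoters in the table. The ETS motif was in 15 (21.4%, against 9.12%), the YY1 motif AAGATGGC in 10 (14.3%, against 2.88%) and the ERR motif in 8 (11.4%, against 4.66%). The E-box was in 6 (8.57%, against 16.1%), and the MEF2 and CArG motifs, searched by their usual degenerate forms, were in 0 of the 70 (against 0.566% and 1.57%). Both strands were searched, none of these motifs contains another, and a match describes letters, not a bound site.

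Bulk levels are given as deposited by the authors, in FPKM, a measure of fragments scaled for transcript length and library size, so that they can be compared between genes. Their sum ran between 464441 and 577580 per library, and read depth is unknown. Rn45s, a ribosomal RNA precursor, stood at 23713 to 53713 FPKM in the 9 SMMC libraries, against 113 and 123 in MuSC, and whether this bears on the comparison with MuSC was not tested. Marker lists bore on the labels: the 8 MuSC markers summed to 772 to 1045 FPKM in fresh SMMC, against 28328 and 41107 in MuSC. The list includes Vcam1, on which the cells were sorted, and of its genes 7 were called lower and 1 higher in fresh SMMC. In fresh SMMC 9 pericyte markers summed to 3084 to 8106 FPKM and 7 tenocyte markers to 8825 to 18069, against at most 39.3 and 26.9 in cultured SMMC. The 9 mature muscle markers summed to 17894 to 22378 FPKM in differentiating SMMC, against 627 to 1745 in proliferating SMMC.

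In total abundance the genes were low in freshly sorted cells and high in culture. They summed to 5226, 5539 and 5799.5 FPKM in fresh SMMC, 20252, 16001 and 17137 in proliferating SMMC and 22032, 20623 and 26667 in differentiating SMMC, with 4441 and 2695 in MuSC. The cultured libraries all lay above the fresh ones, and differentiating above proliferating. As a share of all FPKM they made up 1.06, 1.12 and 1.15% in fresh SMMC, 3.51, 2.86 and 3.09% in proliferating SMMC, 4.01, 3.72 and 4.81% in differentiating SMMC and 0.914 and 0.580% in MuSC. Complex I accounted for 1920.1, 2071 and 2184 FPKM in fresh SMMC, 7016, 5394 and 5748 in proliferating and 8092, 7704 and 10020.4 in differentiating SMMC. In bulk RNA, fewer cells of a type and less RNA per cell cannot be told apart.

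**Figure D1:**
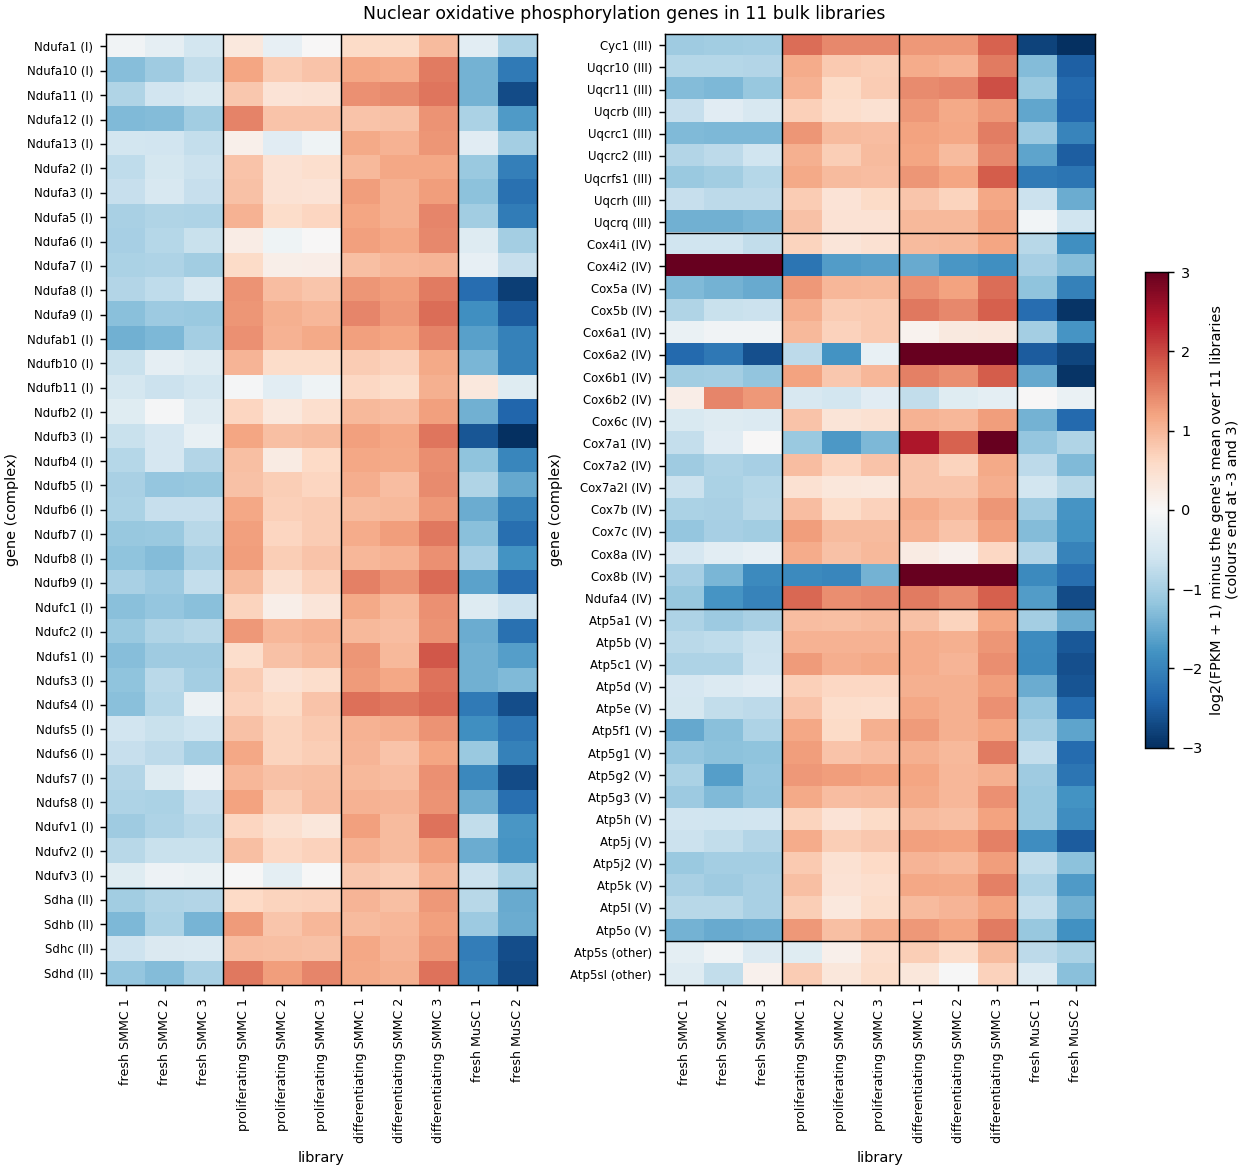
Heat map of 82 of the 83 tested genes (rows, with the complex in parentheses) in 11 libraries (columns); colour is log2(FPKM + 1) minus the mean of the gene over the 11 libraries, with colours ending at -3 and 3. Most genes share 1 pattern, pale or blue in fresh SMMC and MuSC and red in both cultured groups, and Cox4i2, Cox6a2, Cox6b2, Cox7a1 and Cox8b depart from it.

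The testis isoforms Cox7b2 and Cox8c were read in 1 library alone, fresh SMMC replicate 2, at 0.129 and 0.0531 FPKM, and were not tested. The other 83 passed the filter of 1 FPKM in 2 libraries and entered a fit over all 13233 genes that passed it, on log2(FPKM + 1). A gene is called where its p-value adjusted over all 13233 genes was under 0.05. On this scale the change of genes near 0 FPKM is understated.

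Fresh SMMC had higher levels than fresh MuSC for many of these genes, at a share of calls close to that of all genes. Of the 83 genes, 44 were higher and 3 lower in fresh SMMC, 56.6% called, against 59.7% of all genes tested; 53% were higher, against 41.7% of all genes. The median log2 change was 0.69, against 0.45 for all genes. It was 0.79 for the 36 complex I genes (23 higher, 2 lower), 1.02 for the 9 of complex III (5 higher, 1 lower), 0.69 for the 17 tested of complex IV (8 higher) and 0.32 for the 15 of complex V (6 higher). Of complex II, Sdhc and Sdhd were higher, and Sdha and Sdhb were not called.

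Cox4i2 differed most by a wide margin, at 44.8, 106 and 149 FPKM in fresh SMMC, against 1.3 and 0.899 in MuSC (log2 change 5.43, SE 0.41, adjusted p = 3.73e-07). Every fresh SMMC library lay far above both MuSC libraries, and replicate 1 was the lowest of the 3. The pericyte markers followed the same order of libraries, at 3084, 6145 and 8106 FPKM in fresh SMMC, against 353 and 362 in MuSC. So did the smooth muscle markers, at 1386, 1592 and 2094 FPKM in fresh SMMC, against 228 and 170 in MuSC, and the endothelial markers. The tenocyte, Schwann, MuSC and mature muscle sums had other orders. The part of these cell types in the Cox4i2 result was not tested. Ndufb3, an accessory subunit of the membrane arm, was at 18.9, 21.2 and 25.9 FPKM in fresh SMMC, against 4.32 and 2.70 in MuSC (log2 change 2.36, SE 0.23, adjusted p = 3.15e-06). Every fresh SMMC library lay above both MuSC libraries in Ndufb3. Cox5b, a nuclear subunit of complex IV, Sdhc, a membrane anchor of complex II, and Cyc1, cytochrome c1 of complex III, had log2 changes of 1.87, 1.87 and 1.86.

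The 3 lower genes were Uqcrq, a small subunit of complex III, and the complex I accessory genes Ndufc1 and Ndufa7. Uqcrq was at 44.0, 44.2 and 46.3 FPKM in fresh SMMC, against 115 and 79.5 in MuSC (log2 change -1.08, SE 0.21, adjusted p = 0.000839). Ndufc1 was at 8.87, 9.54 and 8.99 FPKM in fresh SMMC, against 17.2 and 14.5 in MuSC (log2 change -0.73, SE 0.21, adjusted p = 0.00915), and Ndufa7 at 30.2, 30.7 and 28.3 FPKM in fresh SMMC, against 50.0 and 36.4 in MuSC (log2 change -0.51, SE 0.20, adjusted p = 0.0412). All 3 had both MuSC libraries above every fresh SMMC library. Among catalytic and core subunits, the ATP synthase beta subunit Atp5b was at 72.5, 75.2 and 80.6 FPKM in fresh SMMC, against 33.8 and 21.1 in MuSC (log2 change 1.47, SE 0.20, adjusted p = 5.46e-05), and the Rieske iron-sulfur protein Uqcrfs1 at 196, 206 and 234 FPKM, against 97.5 and 93.4 in MuSC (log2 change 1.14, SE 0.21, adjusted p = 0.000559). The alpha subunit Atp5a1 did not pass, at 73.8, 65.4 and 71.4 FPKM in fresh SMMC, against 69.3 and 49.1 in MuSC (log2 change 0.26, SE 0.20, adjusted p = 0.295). Uqcrc1, Ndufs1 and Ndufv1 were not called either, with log2 changes of 0.19, 0.42 and 0.31, nor was the nuclear complex IV subunit Cox5a (0.20). Other core subunits were higher, by 1.84 for Ndufs7, 1.00 for Ndufs8, 0.91 for Ndufv2 and 1.27 for Uqcrc2, and Ndufs3 was not called (0.38); these 5 were added after their values were seen. Ndufs8 lost its call with TMM and without MuSC replicate 2, and Ndufv2 with quantile normalization. Among complex IV isoforms, Cox4i1, Cox6a1, Cox6b1, Cox6b2 and Cox8a were higher, by 0.69, 1.26, 1.15, 1.07 and 1.08, and all of these but Cox6a1 lost the call with TMM rescaling and without MuSC replicate 2. Cox4i1 also lost it without any 1 fresh SMMC library, and Cox6b2 without fresh SMMC replicate 2. Cox6a2, Cox7a1, Cox7a2 and Cox8b were not called.

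Markers of other cell types moved with this comparison: mature muscle markers summed to 121, 71.9 and 67.1 FPKM in fresh SMMC, against 23.7 and 21.4 in MuSC, endothelial markers to 219, 291 and 357 in fresh SMMC, against 7.50 and 8.64 in MuSC, and Schwann markers to 407, 231 and 268 in fresh SMMC, against 6.99 and 5.83 in MuSC. Their part in the result was not tested.

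This comparison depends on scaling and on 1 library: MuSC replicate 2 summed to 2695 FPKM over the genes, against 4441 in replicate 1, and without it 27 genes were higher and 4 lower, with a median 0.05 above that of all genes instead of 0.24 (without MuSC replicate 1, 55 were higher and 1 lower, 0.54 above). TMM rescaling moved the median of all genes to 0.07 and left 24 genes higher and 10 lower, with the genes' median 0.19 above that of all genes; quantile normalization moved it to -0.04 and gave 36 higher and 5 lower, 0.42 above. Of the genes named here, Ndufc1 lost its call without MuSC replicate 1, and Ndufa7 without that library and without any 1 fresh SMMC library.

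Proliferating SMMC showed a broad rise of these genes over fresh SMMC in all 5 complexes. Of the 83 genes, 75 were higher and 3 lower in proliferating SMMC, 94% called, against 68.5% of all genes tested; 90.4% were higher, against 33.1% of all genes, of which 35.4% were lower. The median log2 change was 1.63, against -0.06 for all genes. Called and at least 2-fold higher were 69 of the 83 genes, against 3221 of all 13233. All 15 genes of complex V (median 1.78), all 9 of complex III (1.99), all 4 of complex II (1.93), 33 of 36 of complex I (1.47) and 13 of 17 tested of complex IV (1.35) were higher.

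The largest rise was that of Ndufa4, a subunit first assigned to complex I and since assigned to complex IV, at 574, 461 and 472 FPKM in proliferating SMMC, against 78.2, 50.7 and 42.5 in fresh SMMC (log2 change 3.15, SE 0.28, adjusted p = 8.08e-07). Sdhd, a membrane anchor of complex II, reached 88.5, 71.0 and 82.2 FPKM in proliferating SMMC, against 12.4, 11.1 and 14.4 in fresh SMMC (log2 change 2.59, SE 0.23, adjusted p = 8.29e-07). Cyc1 was at 192, 164 and 165 FPKM in proliferating SMMC, against 27.9, 28.5 and 28.8 in fresh SMMC (log2 change 2.57, SE 0.18, adjusted p = 1.24e-07). In each of these genes every proliferating library lay above every fresh one. Atp5o, the stalk subunit that confers oligomycin sensitivity, was at 135, 102 and 115 FPKM in proliferating SMMC, against 19.4, 18.3 and 18.9 in fresh SMMC (log2 change 2.56, SE 0.20, adjusted p = 3.61e-07). Cox5a, a nuclear subunit of complex IV, was at 769.8, 623 and 610.3 FPKM in proliferating SMMC, against 123, 116 and 108 in fresh SMMC (log2 change 2.51, SE 0.22, adjusted p = 8.45e-07). Atp5g2, 1 of 3 genes for the c-ring subunit, was at 221, 213 and 208 FPKM in proliferating SMMC, against 45.8, 27.8 and 39.4 in fresh SMMC (log2 change 2.5, SE 0.26, adjusted p = 3.62e-06).

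The catalytic and core subunits rose with them. The complex I subunits Ndufs1, which carries iron-sulfur clusters, and Ndufv1, which binds NADH, rose by 1.93 and 1.42 on the log2 scale, the succinate dehydrogenase flavoprotein Sdha by 1.6 and its iron-sulfur subunit Sdhb by 2.26. In complex III, the core subunit Uqcrc1 rose by 2.40 and Uqcrfs1 by 2.02. In complex V Atp5a1 rose by 1.91 and Atp5b by 1.78. Cox5b, a nuclear subunit of complex IV outside its catalytic core, rose by 1.62. The highest mean level in proliferating SMMC was that of Atp5f1, a subunit of the peripheral stalk, at 1376, 906 and 1284 FPKM in proliferating SMMC, against 208, 254 and 321 in fresh SMMC; Atp5f1 is named here after its values were seen.

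The 3 genes that fell were complex IV isoforms. Cox4i2 was at 0, 0.445 and 0.487 FPKM in proliferating SMMC, against 44.8, 106 and 149 in fresh SMMC (log2 change -6.13, SE 0.36, adjusted p = 3.77e-08). The pericyte markers dropped along with it, to 11.3, 11.7 and 20.8 FPKM in proliferating SMMC, against 3084, 6145 and 8106 in fresh SMMC, with all 9 called lower. Cox6b2 was at 1.24, 1.15 and 1.49 FPKM in proliferating SMMC, against 2.58, 7.64 and 6.66 in fresh SMMC (log2 change -1.44, SE 0.30, adjusted p = 0.000934), where its counterpart Cox6b1 rose by 2.08. Cox7a1 was at 0.998, 0.319 and 0.70 FPKM in proliferating SMMC, against 1.61, 2.42 and 3.32 in fresh SMMC (log2 change -1.04, SE 0.33, adjusted p = 0.0142), and its counterpart Cox7a2 rose by 1.80. In all 3 the groups did not overlap. Cox6a2, low in both groups, was higher at 3.46, 1.25 and 5.63 FPKM in proliferating SMMC, against 0.532, 0.768 and 0.254 in fresh SMMC (log2 change 1.43, SE 0.34, adjusted p = 0.00231), with no overlap. The 5 genes not called were Ndufa1, Ndufb11, Ndufv3, Cox8b and Atp5s.

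The count was 73 to 75 higher with any 1 of the 6 libraries left out, and 74 with TMM. The calls of 2 genes were less firm: Cox7a1 was lost with quantile normalization, without fresh SMMC replicate 3 and without proliferating SMMC replicate 2, and Ndufa13 (log2 change 0.50, SE 0.21, adjusted p = 0.0476) with TMM, with quantile normalization, without the filter and without each library but proliferating SMMC replicate 2. The cell-cycle list was higher in 12 of 12 genes, the tenocyte list lower in 6 of 7, and its sum dropped to 6.40, 16.9 and 10.9 FPKM in proliferating SMMC, against 18069, 13069 and 8825 in fresh SMMC. The mature muscle list was higher in 6 of 9 genes, against 33.1% of all genes. Its sum was 1118, 627 and 1745 FPKM in proliferating SMMC, against 121, 71.9 and 67.1 in fresh SMMC. The parts of growth in culture, of lost cell types and of muscle gene expression in the rise cannot be told apart in this design.

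**Figure D2:**
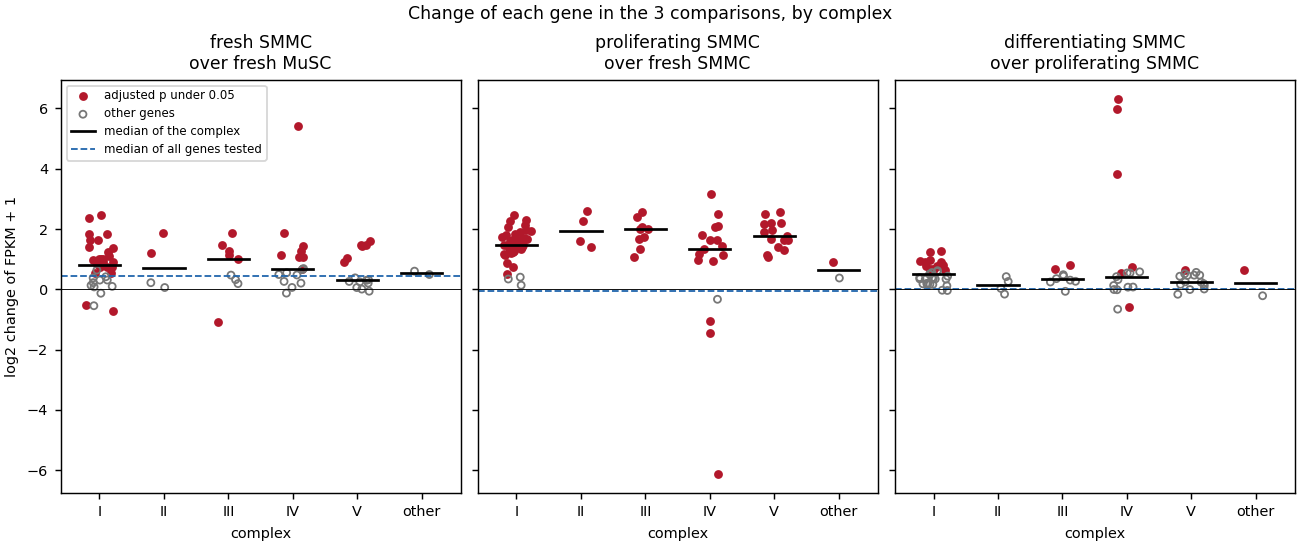
Log2 change of FPKM + 1 (vertical axis) of each of the 83 tested genes, by complex (horizontal axis), in the 3 comparisons; red points are called genes, black bars medians of a complex, and the dashed line the median of all 13233 genes. In the middle panel 75 of 83 points are called above 0, and in the right panel the 3 muscle isoforms stand alone above 3.

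On differentiation fewer of these genes changed, and the 3 muscle isoforms of complex IV rose most. Of the 83 genes, 23 were higher and 1 lower than in proliferating SMMC, 28.9% called, against 40.5% of all genes tested; 27.7% were higher, against 20.9% of all genes, of which 19.6% were lower. The median log2 change was 0.42, against 0.00 for all genes. Called and at least 2-fold higher were 5 of the 83 genes, against 1816 of all 13233, a larger share. Complex I had 14 of its 36 genes higher (median 0.50), complex III 2 of 9, complex IV 5 of 17 tested with 1 lower, complex V 1 of 15 and complex II 0 of 4.

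Cox8b was at 142, 137 and 219.7 FPKM in differentiating SMMC, against 0.841, 0.781 and 1.58 in proliferating SMMC (log2 change 6.33, SE 0.29, adjusted p = 4.36e-08). Cox6a2 was at 298, 207 and 275 FPKM in differentiating SMMC, against 3.46, 1.25 and 5.63 in proliferating SMMC (log2 change 5.99, SE 0.34, adjusted p = 2.44e-07). Cox7a1 was at 22, 13.6 and 37.0 FPKM in differentiating SMMC, against 0.998, 0.319 and 0.70 in proliferating SMMC (log2 change 3.83, SE 0.33, adjusted p = 3.88e-06). All 3 were at most at 5.63 FPKM in every proliferating library and at least at 13.6 in every differentiating one. The mature muscle markers went along, at 22378, 17894 and 21836 FPKM in differentiating SMMC, against 1118, 627 and 1745 in proliferating SMMC, with 9 of 9 higher, and their part in the result was not tested. Cox6a1 was at 182, 208 and 211 FPKM in differentiating SMMC, against 332, 275 and 292 in proliferating SMMC (log2 change -0.58, SE 0.20, adjusted p = 0.0345), the 1 gene called lower. Cox8a was at 436, 404 and 562 FPKM in differentiating SMMC, against 793, 681 and 724 in proliferating SMMC (log2 change -0.66, SE 0.25, adjusted p = 0.0549), and Cox7a2 was not called (log2 change 0.08, SE 0.19, adjusted p = 0.804). For Cox6a1 and Cox8a the highest differentiating library lay below the lowest proliferating one.

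Among complex I genes the accessory subunits Ndufa13 and Ndufa6 changed most. Ndufa13 was at 664, 625 and 761 FPKM in differentiating SMMC, against 336, 237 and 277 in proliferating SMMC (log2 change 1.28, SE 0.21, adjusted p = 0.000393). Ndufa6 was at 201, 194 and 235 FPKM in differentiating SMMC, against 100.4, 77.9 and 87.1 in proliferating SMMC (log2 change 1.24, SE 0.20, adjusted p = 0.000321). Ndufv3 was at 4.36, 4.15 and 5.31 FPKM in differentiating SMMC, against 2.01, 1.49 and 2.01 in proliferating SMMC (log2 change 0.98, SE 0.19, adjusted p = 0.00143). In each, every differentiating library lay above every proliferating one. The complex I core subunits Ndufv1 and Ndufs3 rose by 0.78 and 0.78, Cox5b by 0.73 and the supercomplex-related Cox7a2l by 0.55. The core subunits Ndufs1, Ndufs7, Ndufs8, Ndufv2, Uqcrc2, Sdha, Sdhb, Cyc1, Uqcrc1, Uqcrfs1, Atp5a1 and Atp5b, and the nuclear complex IV subunit Cox5a, were not called. Their log2 changes lay between -0.07 (Cyc1) and 0.59 (Ndufs1).

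The count of higher genes was 13 without proliferating SMMC replicate 2 and without differentiating SMMC replicate 3, 15 without proliferating SMMC replicate 3, and 16 to 25 without any other. The Cox6a1 call was lost without any 1 of the 6 libraries and without the filter, that of Cox7a2l without proliferating SMMC replicate 2 or 3 or differentiating SMMC replicate 3, and that of Ndufv1 without any of these 3, without differentiating SMMC replicate 1 or without the filter.

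As shares of paralogs within a library, which a scale factor per library leaves as they are, the muscle isoforms were highest in the differentiating group. Cox6a2 made up 62.1, 50.0 and 56.6% of Cox6a1 plus Cox6a2 in differentiating SMMC, against 1.03, 0.452 and 1.89% in proliferating SMMC. Cox8b made up 24.5, 25.3 and 28.1% of Cox8a plus Cox8b in differentiating SMMC, against 0.106, 0.115 and 0.218% in proliferating SMMC. Cox7a1 made up 11.3, 8.14 and 14.8% of Cox7a1 plus Cox7a2 in differentiating SMMC, against 0.541, 0.211 and 0.399% in proliferating SMMC. The differentiating and proliferating libraries did not overlap in any of the 3 shares. In fresh SMMC the Cox7a1 share was 3.45, 4.58 and 6.52%, above every proliferating library.

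Cox4i2 made up 11.9, 24.4 and 33.2% of Cox4i1 plus Cox4i2 in fresh SMMC, against 0.458 and 0.644% in MuSC. In proliferating SMMC it made up 0, 0.0695 and 0.0710%. Its counterpart Cox4i1 was at 332, 328 and 299.8 FPKM in fresh SMMC, 799.9, 639 and 685 in proliferating SMMC, 964, 984 and 1134 in differentiating SMMC and 282 and 139 in MuSC, and was the major form in every library. Atp5g1, whose product is the same mature c-subunit as that of Atp5g2 and Atp5g3, had overlapping shares: it made up 24.3, 32.3 and 26.4% of the 3 in fresh SMMC, 26.9, 22.7 and 24.0% in proliferating SMMC and 25.5, 26.8 and 33.2% in differentiating SMMC. Over 15 tests of shares, an exact two-sided permutation test gave at the least 0.1 for 3 against 3 libraries and 0.2 for 3 against 2, the smallest these designs allow, and no adjusted value was under 0.25; the shares are a description.

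**Figure D3:**
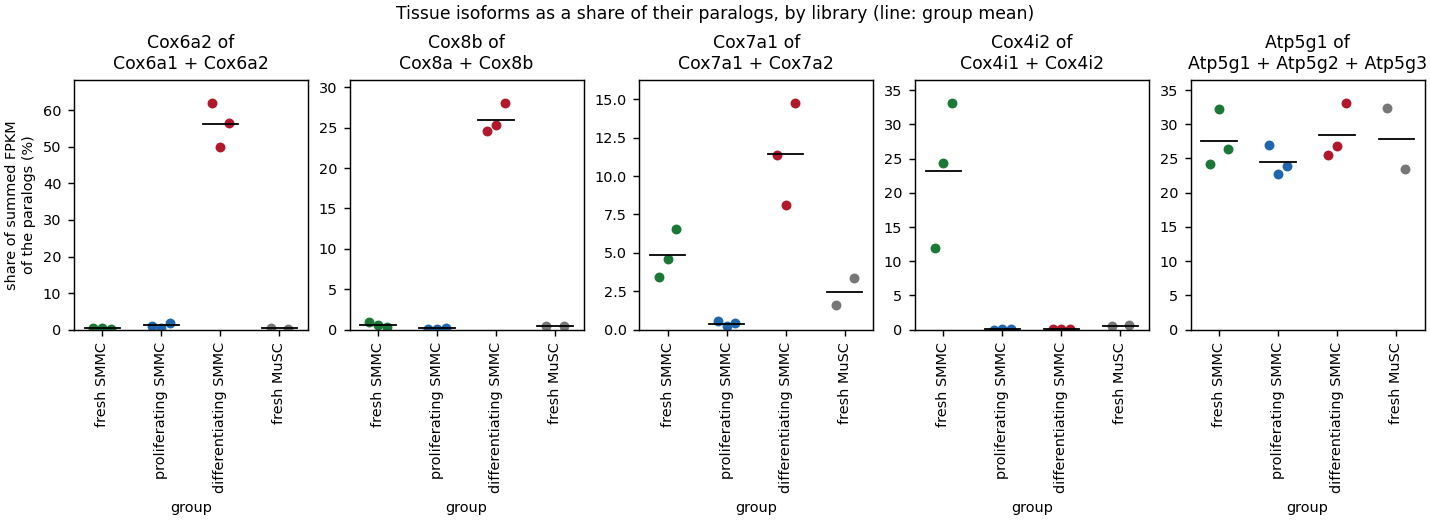
Share (%) of each tissue isoform in the summed FPKM of its paralogs, 1 point a library and a line at the group mean, for fresh, proliferating and differentiating SMMC and fresh MuSC. Cox6a2, Cox8b and Cox7a1 are highest in differentiating SMMC, Cox4i2 is 11.9 to 33.2% in fresh SMMC and under 1% elsewhere, and Atp5g1 lies between 22.7 and 33.2% in all groups.

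**Figure D4:**
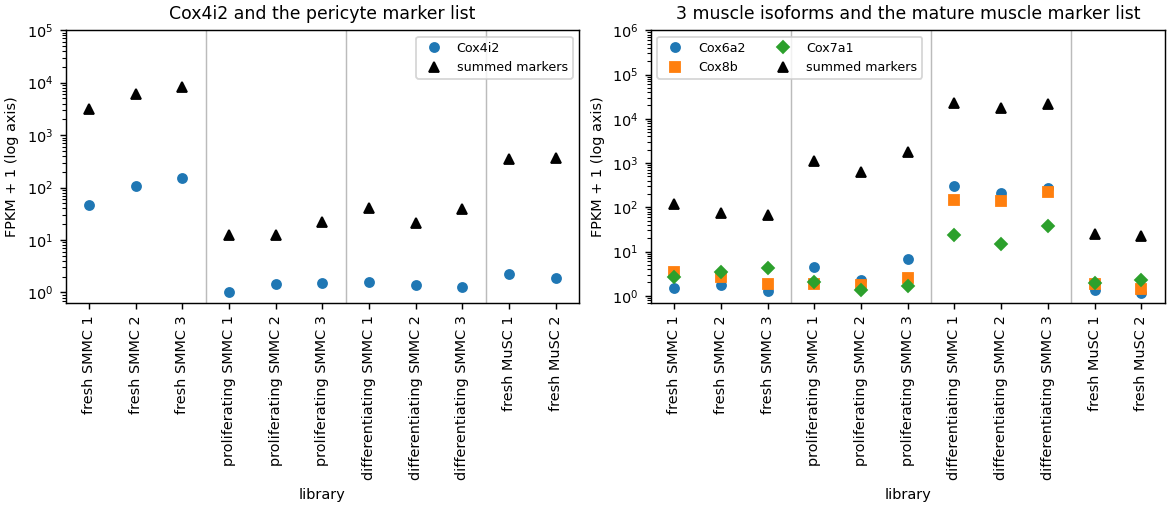
FPKM + 1 on a log axis in the 11 libraries, for Cox4i2 beside 9 summed pericyte markers (left) and for Cox6a2, Cox8b and Cox7a1 beside 9 summed mature muscle markers (right). Cox4i2 and the pericyte sum are high in the same 3 fresh SMMC libraries and in the same order, which the smooth muscle and endothelial sums (not drawn) share. The muscle isoforms are high in the 3 differentiating libraries, where the muscle sum is 17894 to 22378 FPKM.

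Other mitochondrial gene lists are given by their counts, with no test of a difference from the complexes. In proliferating against fresh SMMC, 36 of 43 assembly factors were higher and 1 lower (smallest adjusted p for Ndufaf6, Ndufaf1 and Atpaf2), 15 of 16 citrate cycle genes were higher, all 18 import and inner membrane carrier genes, and all 10 electron carrier genes, which are Cycs and the ubiquinone synthesis genes, against 33.1% of all genes higher and 35.4% lower. Cycs, cytochrome c itself, is not on the rule's list and was at 1278, 989 and 996 FPKM in proliferating SMMC, against 208, 251 and 298 in fresh SMMC (log2 change 2.11, SE 0.26, adjusted p = 1.34e-05). Idh3a, of the citrate cycle, rose by 3.18, and Tomm40, the import channel, by 3.0. Fatty acid oxidation genes were higher in 11 of 18, with a median of 0.65, below the 1.63 of the complexes.

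In differentiating against proliferating SMMC, 15 of the 18 fatty acid oxidation genes were higher and 1 lower, with a median of 0.95, against 20.9% of all genes higher and 19.6% lower. Cpt1b, the muscle form of the enzyme that admits fatty acids, was at 21.1, 26.4 and 49.5 FPKM in differentiating SMMC, against 0.0335, 0.0520 and 1.13 in proliferating SMMC (log2 change 4.56, SE 0.36, adjusted p = 2.29e-06), while Cpt1a, the liver form, was the 1 lower gene (log2 change -1.01, SE 0.33, adjusted p = 0.0281). Acadl and Acaa2, enzymes of the beta-oxidation cycle, rose by 1.85 and 1.82. Of the import genes, 8 of 18 were lower and Slc25a4 was the 1 higher: the chaperonins Hspd1 and Hspe1 changed by -1.72 and -1.3 and Tomm40 by -1.55. Electron carrier genes had 2 lower, Pdss1 and Coq7, and Coq9 higher (log2 change 1.56, SE 0.23, adjusted p = 0.000199). Assembly factors had 8 of 43 higher and 4 lower, and the citrate cycle 5 of 16 higher and 1 lower.

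Regulators known to act on these genes had 5 of 12 (41.7%) higher and 1 lower in proliferating over fresh SMMC, against 33.1% of all genes higher and 35.4% lower. In differentiating over proliferating SMMC they had 2 of 12 (16.7%) higher and 3 lower, against 20.9% and 19.6% of all genes. Ppargc1a, a coactivator of mitochondrial biogenesis, was at 6.25, 3.92 and 9.83 FPKM in differentiating SMMC, against 1.83, 1.66 and 3.25 in proliferating SMMC (log2 change 1.20, SE 0.31, adjusted p = 0.00784), and did not pass in proliferating against fresh SMMC (-0.38). Nrf1, which binds the motif of that name, was at 21.9, 28.7 and 29.4 FPKM in proliferating SMMC, against 12.7, 15.3 and 16.8 in fresh SMMC (log2 change 0.79, SE 0.22, adjusted p = 0.00615), and was lower in differentiating SMMC, at 9.50, 12.9 and 14.8 (log2 change -1.05, SE 0.22, adjusted p = 0.00215). Tfam, which packages and transcribes mitochondrial DNA, rose by 1.13 in proliferating over fresh SMMC, changed by -0.55 in differentiating over proliferating SMMC and was lower in fresh SMMC than in MuSC (log2 change -1.05, SE 0.21, adjusted p = 0.000791). Ppargc1b was called in fresh SMMC against MuSC alone (log2 change 1.64, SE 0.44, adjusted p = 0.00606), where Ppargc1a was also higher (1.40). Gabpa and Esrra were called in none of the 3. In fresh SMMC against MuSC, assembly factors had 23 of 43 higher and 7 lower, the citrate cycle 9 of 16 and 1, fatty acid oxidation 10 of 18 and 0, import genes 9 of 18 and 2, electron carriers 5 of 10 and 0, and regulators 2 of 12 and 3, where 41.7% of all genes were higher and 18% lower.

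The genes of the complexes followed a common profile over the 11 libraries. Each gene's log2(FPKM + 1) was correlated with the mean of the standardised values of the 83 genes, itself included. Pearson's r was above 0.9 for 66 of 83, with a median of 0.97, and under 0.5 for Cox6b2 (-0.54) and Cox4i2 (-0.52); Cox7a1 (0.55), Ndufb11 (0.66) and Cox8b (0.68) came next. The 11 points share 4 groups, so this describes group levels more than independent libraries. The share of all tested genes with r above 0.9 is not given, so the count of 66 has no background here. Whether these genes followed the profile more often than other genes was not tested. Outside the list, the 3 genes nearest to the profile were Slc25a4, the muscle ADP/ATP carrier (r = 0.998), Usmg5, a small protein bound to ATP synthase (r = 0.995), and Cebpzos (r = 0.994). Slc25a4 was at 239, 233 and 253 FPKM in fresh SMMC, 913, 671 and 741 in proliferating SMMC, 1132, 1100.4 and 1618 in differentiating SMMC and 194 and 99.6 in MuSC.

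The droplet libraries of uninjured muscle placed the genes by cell class. They held 6144 and 6297 cells with 19353328 and 15507938 UMIs (medians of 2516 and 2027 a cell), and 53 cell barcodes occurred in both. Cells were clustered without the 83 detected genes of the list and without mitochondrially encoded genes, 25 of 27 clusters were named from marker genes, and counts were summed per library and class as CPM, counts scaled to a common library total; classes under 10 cells in a library were set aside. No test was run, because both libraries are of 1 condition. Names were rebuilt from markers and may differ from those of the study.

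Mature skeletal muscle-like cells, 12 in each library, held far more of these transcripts than any other class: 124138 and 135548 CPM in libraries 1 and 2, against 11074 to 23918 in the other 12 classes. Of 83 genes, 76 were highest in this class in each library and 75 in both. The median ratio to MuSC-like cells was 9.17 in library 1 and 8.77 in library 2. These counts and ratios were not taken over all genes, so they have no background here. The class held 35823 and 39713 UMIs in all. The exceptions in 1 library or both were Atp5s, Atp5sl, Cox4i2, Cox6a1, Cox6b2, Cox7a2l, Cox8a and Sdha. The 7 muscle markers that named the class summed to 136421 and 128950 CPM in it, against at most 165 elsewhere. The mitochondrially encoded subunits, by contrast, were lowest in this class, at 5164 and 6849 CPM, against 13100 to 37459 in the others. These were 185 and 272 UMIs in the muscle-like cells. All 6144 and 6297 deposited cells passed the limits on genes and mitochondrial counts used here. Removal of cells before deposit was not examined.

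Isoforms divided by class. In muscle-like cells Cox6a2 made up 96.5% (165 of 171 UMIs, exact 95% binomial interval 92.5 to 98.7%) and 95.7% (154 of 161, 91.2 to 98.2%) of Cox6a, Cox8b 76.5% (66.0 to 85.0%) and 91.6% (86.0 to 95.4%) of Cox8, and Cox7a1 50.0% (39.7 to 60.3%) and 67.4% (59.9 to 74.4%) of Cox7a. In MuSC-like cells these shares were 1.02% and 0.389% for Cox6a2, 0.721% and 0.705% for Cox8b, and 0.847% and 1.11% for Cox7a1. Such intervals cover counting error only. Cox6a1 was below its MuSC-like level in muscle-like cells, at 167 and 176 CPM (6 and 7 UMIs) against 367 and 496. Cox8a was at 327 CPM (13 UMIs) in muscle-like cells against 819 in MuSC-like cells of library 2. In library 1 Cox8a was at 558 CPM (20 UMIs) against 622, too close to order on so few UMIs. Acta1, an abundant muscle transcript, was at 12.6 to 71.4 CPM in the other classes (0 in NK cell-like cells of library 1), against 31460.2 and 35656 CPM in muscle-like cells.

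Cox4i2 was largely a gene of pericyte-like cells. It had 136 UMIs over 216 such cells and 108 over 312, or 231 and 164 CPM, against at most 8.85 CPM in any other class. A UMI was seen in 43.5% and 24.7% of pericyte-like cells (median depth 2140 and 1740 UMIs), against 0% and 0.173% of MuSC-like cells (3425 and 2529 UMIs). It made up 21.7% (18.5 to 25.1%) and 18.3% (15.2 to 21.6%) of Cox4i in pericyte-like cells. In muscle-like cells it had 0 UMIs, which allows up to 83.8 and 75.5 CPM. This cluster was led by Rgs5, Kcnj8, Abcc9 and Vtn, and also by Acta2, Myl9 and Tagln, which smooth muscle shares. Cox7a1 had 9 and 13 UMIs in the same class, or 15.3 and 19.7 CPM, against 2.26 and 4.52 in MuSC-like cells. Beside these, Acta1 was at 22.1 and 39.5 CPM in pericyte-like and 47.5 and 49.8 CPM in MuSC-like cells, and in muscle-like cells Cox7a1 was at 1368 and 2921 CPM, far below Acta1.

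Among the other 12 classes the order of the summed level was not the same in both libraries. Cycling-like cells, 44 and 16, a cluster led by the B-cell precursor genes Vpreb3 and Vpreb1, were the highest of these, at 23918 and 23181 CPM. Pericyte-like cells were at 21839.6 and 14878 CPM, against 14771 and 16737 in MuSC-like cells, with 73 of 83 genes above MuSC-like cells in library 1 but 26 in library 2, so no order between these classes held in both. Tenocyte-like cells were at 15135 and 12589.5 CPM and neutrophil-like cells at 11074 and 13870.2 CPM.

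**Figure D5:**
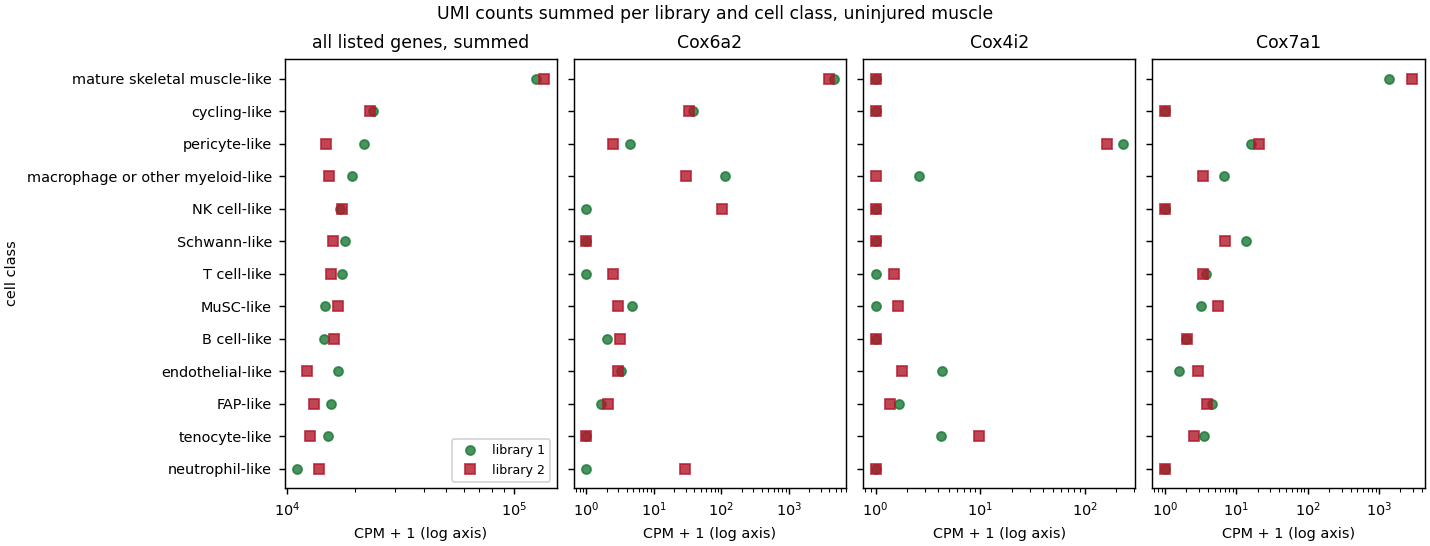
CPM + 1 on a log axis of the summed genes, Cox6a2, Cox4i2 and Cox7a1 (panels) in 13 cell classes (rows) of uninjured muscle, with 1 point for each of the 2 libraries. Muscle-like cells lie at 124138 and 135548 CPM for the summed genes, and Cox4i2 lies at 231 and 164 CPM in pericyte-like cells and at most at 8.85 in the others.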

How the data were processed

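Bulk values were FPKM per gene, deposited by the authors in 1 table with 24411 genes and 11 labelled libraries in 4 groups; 4 further FPKM columns that match no sample here were not used. Per the submitters' processing notes, the build was mm10 and the tools named were Cell Ranger 2.1.0 and 2.2.0, HISAT2 2.1.0, R 3.3.1, 3.4.3 and 3.5.1, SAMtools 1.3.1, Seurat 2.2 and 2.3.4, STAR 2.5.1b and StringTie, with no role given. How reads shared with processed pseudogene copies, common for these genes, were counted, and the strand setting, are not given in the sources used here. Droplet data were UMI counts per gene and cell, deposited by the authors for 2 libraries.

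The 13233 genes that reached 1 FPKM in 2 or more libraries were fitted as log2(FPKM + 1) with limma 3.58.1 (trended empirical Bayes, R 4.3.3) on 4 group means, with Benjamini-Hochberg adjustment over all of them at 0.05. Rescaling used TMM of edgeR 4.0.16, and isoform shares an exact permutation test. FPKM carry no read depth, so counting intervals are given for droplet counts alone. Droplet cells with at least 200 genes and under 20% mitochondrial counts were clustered with scanpy 1.11.5 (Python 3.11.15; 2000 variable genes, 30 components, 15 neighbours, Leiden resolution 1.0). Scrublet called 54 doublets in library 1 (0.879%), which were left out, and 4 in library 2 (0.064%), where it did not work, so doublets remain there. The minimum of 10 cells per library and class was chosen after seeing the data. Scripts were tested on simulated data.

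Named genes were all members with a tissue isoform or paralog, and a set of core or catalytic subunits with Cox5a and Cox5b (5 of complexes I and III added after their values were seen). They also included the 6 largest called increases and decreases per comparison, up to 3 genes per related list by adjusted p with 6 regulators, and the 3 other genes nearest to the common profile. 1 gene of the list enters the counts but is not reported here. The members and lists were chosen with earlier results of these data known. Alternatives tried were a pseudocount of 0.1, no filter or a filter of 10 FPKM, TMM, quantile normalization, a replicate block, the 2 groups alone, each library left out, and for droplets 2 other resolutions and doublets kept.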

Additional observations from a re-analysis of the deposited data

How the results depend on the processing

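In fresh SMMC against MuSC, TMM gave 24 genes higher and 10 lower with a median of 0.26, and quantile normalization 5 lower; the call of Ndufv3 (0.56) turned to -0.15 with quantile normalization. In proliferating against fresh SMMC the median was 1.37 with quantile normalization, and its distance from the median of all genes 1.24 with quantile normalization and 1.36 with the filter of 10 FPKM. In differentiating against proliferating SMMC, 0 genes were lower without the filter, and 2 with the filter of 10 FPKM, with TMM, with quantile normalization and with the 2 groups alone; the distance from all genes was 0.53 with quantile normalization. In droplet data, Cox4i2 and Cox7a1 in pericyte-like cells averaged 270.3 and 20.9 CPM at a clustering resolution of 1.6, the summed genes in NK cell-like cells 16725.5 CPM at that resolution and 16671 with doublets kept, and in cycling-like cells 18427 with doublets kept. The causes were not tested.

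Without 1 library each, the counts of higher and lower genes ranged over 27 to 55 and 1 to 4 in fresh SMMC against MuSC, 73 to 75 and 2 to 3 in proliferating against fresh SMMC, and 13 to 25 and 0 to 1 in differentiating against proliferating SMMC. The median change ranged over 0.43 to 1.12, 1.51 to 1.72 and 0.28 to 0.47 in the same order of comparisons, and its distance from all genes over 0.05 to 0.54, 1.54 to 1.79 and 0.28 to 0.47. Deviations of libraries from their group means had r between -0.13 and 0.14 over 15 same-number pairs. Pairs of different number had r between -0.26 and 0.29. With 2 or 3 libraries a group these values cannot decide whether replicate numbers pair the libraries. The replicate block gave 41 higher and 3 lower, 75 and 3, and 23 and 1. Of 76 called results on named genes, 7 lost their call with TMM, 4 without the filter, 3 with the 2 groups alone, 4 with quantile normalization beside the 1 that changed sign, 2 with the block and 0 with the pseudocount of 0.1. Read depth of the bulk libraries is unknown, and muscle-like cells number 12 in each droplet library.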

Other observations

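Cox6a2 was also read in a few cells outside the muscle-like class, described here with genes and a limit of 3 UMIs chosen after the values were seen. In library 1, 13 such cells had at least 3 Cox6a2 UMIs (139 in all), and 12 of them lay in the myeloid-like class. In library 2 there were 5, with 28 UMIs, 4 of them in the same class. These cells were deeper, at medians of 5649 and 3090 UMIs, against 2495 and 2022.5 in cells outside the muscle-like class without a Cox6a2 UMI. Of the cells without it, 242 of 6041 and 211 of 6248 were myeloid-like. The part of depth and of cell class in the percentages that follow was not tested. Siglech, a lectin gene known from plasmacytoid dendritic cells, was read in 11 of the 13 cells (84.6%) and 4 of the 5 (80%), against 0.298% and 0.208% of cells without a Cox6a2 UMI. The chemokine receptor gene Ccr9 was read in 9 of 13 and 3 of 5, against 1.11% and 0.432% of cells without Cox6a2. Tcf4, a transcription factor known from plasmacytoid dendritic cells, was read in 13 of 13 and 1 of 5 (20%), against 46.3% and 38.8%. Acta1, the abundant muscle transcript, was read in 1 of 13 (7.69%) and 0 of 5 of these cells, against 4.73% and 6.71% of the cells without Cox6a2. Ckm, another muscle transcript, was read in 1 of 13 (7.69%) and 1 of 5 (20%), against 2.37% and 3.06%.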
